A study of Mus musculus with 2 samples.

Results

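The genes described here are 5 ligands and 5 receptors of the VEGF and angiopoietin systems in the mouse adrenal gland. They were chosen by symbol, as the VEGF ligands Vegfa, Vegfb and Vegfc, the VEGF receptors Flt1, Kdr and Flt4, the angiopoietins Angpt1 and Angpt2, and the receptors Tek and Tie1. All 10 were found among the 55536 annotated genes of the deposited gene table. Total RNA was sequenced from adrenal gland tissue of B6CASTF1/J females at 10 days of age, an F1 hybrid of C57BL/6J and CAST/EiJ mice. The series holds 1 group with 2 libraries, called replicate 1 and replicate 2 after the labels, each made from 300 ng of RNA with added ERCC spike-in RNA. In the labels the tissue samples carry different female numbers, yet both library entries show 1 and the same female, cDNA number and donor, so it is not clear that n = 2 stands for separate animals. Every SD below is the spread between these libraries, whose hepatocyte and kidney markers differed as given below. It cannot be taken as a spread between animals.

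VEGF ligands are secreted growth factors that bind receptor tyrosine kinases on endothelial cells and drive the growth, survival and permeability of vessels. Angiopoietins act on the same cells through the receptor Tek (also called Tie2), with Angpt1 as its activating ligand and Angpt2 as a ligand that opposes or activates it depending on context. The adrenal cortex is known for a dense bed of fenestrated capillaries, into which steroid-producing cells release their hormones.

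Several of these genes make transcripts that encode different proteins, and the stretches by which they differ are shown here because the transcript shares described below turn on them. They were read 5′ to 3′ on the gene's strand from the GENCODE M21 transcripts of mm10. In Vegfa an optional coding exon of 72 nt lies at chr17:46022277-46022348 and an optional one of 132 nt at chr17:46020991-46021122, both on the minus strand. Capitals mark the codons for lysine or arginine that lie whole within the exon. These residues are known to let the longer VEGFA forms bind heparan sulfate.
Vegfa 72-nt exon: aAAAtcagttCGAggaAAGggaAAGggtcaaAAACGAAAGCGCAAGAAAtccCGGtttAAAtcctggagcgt
Vegfa 132-nt exon: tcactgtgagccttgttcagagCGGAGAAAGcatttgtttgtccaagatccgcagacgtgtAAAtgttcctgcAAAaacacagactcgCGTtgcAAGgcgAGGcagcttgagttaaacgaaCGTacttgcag
Lysine and arginine took 12 of 23 whole codons in the 72-nt exon, or 52.2%, and 9 of 43 in the 132-nt exon, or 20.9%. In the whole coding sequence of Vegfa-207, which holds both exons, they took 64 of 392 codons, or 16.3%.

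In Vegfb, the exon of Vegfb-201 begins 101 nt upstream of the splice acceptor used by Vegfb-202, at chr19:6985496-6985596 on the minus strand. Capitals mark the AG of that downstream acceptor.
Vegfb extension: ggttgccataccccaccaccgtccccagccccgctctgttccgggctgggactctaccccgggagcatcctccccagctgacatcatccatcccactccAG
The extra stretch is not a multiple of 3 nt, so the ends of both VEGFB forms are read in different frames. Vegfb-201 encodes 207 codons and Vegfb-202 encodes 188.

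In Flt1 and Tie1, a transcript with a shorter coding sequence runs past a splice donor into the intron and meets a stop codon there. Capitals mark the GT of the donor and the stop codon. The Flt1 stretch has 95 nt at chr5:147639130-147639224 and the Tie1 stretch 29 nt at chr4:118479584-118479612, both on the minus strand.
Flt1 read-through: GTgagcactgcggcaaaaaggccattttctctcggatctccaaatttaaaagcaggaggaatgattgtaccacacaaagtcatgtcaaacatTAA
Tie1 read-through: GTaggcccactctgggaaggatgggcTAG
Flt1-203, which ends this way, encodes 688 codons against 1333 in the full-length Flt1-202. This form is known as soluble FLT1, which binds VEGF outside the cell and has no kinase domain. Tie1-203 encodes 647 codons against 1134 in Tie1-201.

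In Tek, an optional exon of 153 nt lies at chr4:94799127-94799279 on the plus strand and is missing from Tek-202. It is given in lower case throughout.
Tek exon: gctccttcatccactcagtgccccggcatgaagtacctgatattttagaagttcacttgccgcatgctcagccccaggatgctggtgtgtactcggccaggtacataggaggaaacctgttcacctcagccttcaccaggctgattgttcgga
The exon is a multiple of 3 nt, and Tek-202 encodes 1072 codons against 1123 in Tek-203.

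**Figure D1:**
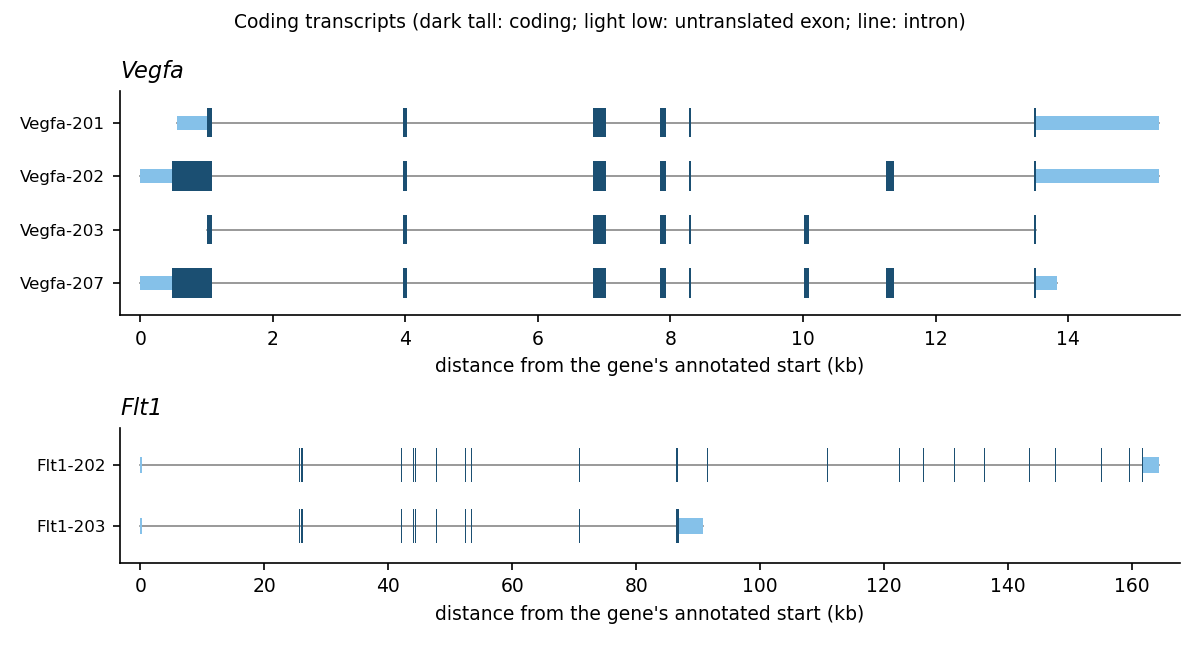
Coding transcripts of Vegfa and Flt1 drawn by distance from the annotated start of the gene in kb; dark tall boxes are coding sequence, light low boxes are untranslated exon and lines are introns. Vegfa-207 holds both optional exons, Vegfa-202 the 132-nt exon, Vegfa-203 the 72-nt exon and Vegfa-201 neither, while Flt1-203 ends inside an intron of Flt1-202.

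The libraries held 35287787 counts on annotated genes in replicate 1 and 33068243 in replicate 2. Levels are in TPM, which divides reads by transcript length and library total, so genes can be set side by side. They are given as deposited in the gene table, where nuclear protein-coding genes took 34.0% of the TPM in replicate 1 and 32.7% in replicate 2. A second deposited quantification of the same reads gave those genes 56.5% and 53.3% of its TPM, and TPM of the 10 genes there ran higher by factors between 1.32 for Flt1 and 1.75 for Vegfa, beside a median factor of 1.51 over 12800 detected coding genes. Adrenal identity was read from 6 cortex markers, led by Hsd3b1 and Cyp21a1, which summed to 3478 TPM in replicate 1 and 3757 TPM in replicate 2, and from 4 chromaffin markers, led by Chga and Pnmt, which summed to 738 and 735 TPM. Markers of other cell types were present as well: 7 fat cell markers, led by Fabp4 and Ucp1, summed to 4978 and 5892 TPM, and 6 skeletal muscle markers, led by Acta1 and Mylpf, summed to 2961 and 987 TPM. The libraries stood apart in 8 hepatocyte markers, led by Alb and Trf, with 5647 TPM in replicate 1 and 1089 TPM in replicate 2, and in 8 kidney markers, led by Slc34a1 and Kap, with 0.87 and 221 TPM.

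Of the 10 genes, 9 reached 1 TPM in both libraries, against 58.1% of protein-coding nuclear genes, and 6 reached 10 TPM, against 27.8%. The gene that missed 1 TPM was Angpt2. In bulk tissue, fewer cells of a type and less RNA per cell cannot be told apart, so none of these levels is a level per endothelial cell.

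Vegfa, the main growth factor for blood vessels, was the most abundant of the 10. It stood at 120.74 TPM in replicate 1 and 118.22 TPM in replicate 2, from 7309 and 6908 counts, a mean of 119.5 ± 1.78 TPM (SD, n = 2). A share of 98.0% of coding genes lay at or below it. The gene lies on chromosome 17 from 46016993 to 46032369 in mm10. The 8 kidney markers summed to 0.87 TPM in replicate 1 and 221 TPM in replicate 2. The fat cell and hepatocyte markers were high in both libraries. The part of kidney, fat and liver cells in the Vegfa level was not tested.

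Vegfb, a ligand of FLT1 known from heart, muscle and brown fat, came next. It had 46.05 TPM in replicate 1 and 41.95 TPM in replicate 2, a mean of 44.0 ± 2.90 TPM (SD, n = 2), and lies on chromosome 19 from 6982473 to 6987651. The part of the fat cells, whose 7 markers all exceeded 10 TPM in both libraries, was not tested. Nor was that of skeletal muscle, whose 6 markers summed to 2961 TPM in replicate 1 and 987 TPM in replicate 2. Vegfc, the ligand that drives lymphatic growth through FLT4, was far lower, with 2.72 TPM in replicate 1 and 3.04 TPM in replicate 2 from 187 and 201 counts. It lies on chromosome 8 from 54077606 to 54187096.

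Within each library, Vegfa and Vegfb differed by a log2 ratio of 1.39 in replicate 1 and 1.50 in replicate 2, a mean of 1.44 ± 0.07 (SD, n = 2) for Vegfa over Vegfb, or 2.72-fold. This ratio depended on which transcripts were counted. With coding transcripts only, a choice made after the data were seen, its mean was 0.68, or 1.60-fold. Vegfc over Vegfa had a mean log2 ratio of -5.38 ± 0.14 (SD, n = 2).

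Among the VEGF receptors the order was Kdr, Flt1 and Flt4, with no overlap between the libraries at any step. Kdr (VEGFR2), the receptor that carries most endothelial signalling by VEGFA, stood at 35.31 TPM in replicate 1 and 35.90 TPM in replicate 2, a mean of 35.6 ± 0.417 TPM (SD, n = 2) from 6703 and 6310 counts. The gene lies on chromosome 5 from 75932827 to 75978458. Its spread was the smallest of the 3 receptors relative to its mean.

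Flt1 (VEGFR1) binds VEGFA tightly with weak kinase activity and is known to act in large part as a decoy. It had 12.39 TPM in replicate 1 and 14.91 TPM in replicate 2, a mean of 13.65 ± 1.78 TPM (SD, n = 2), and lies on chromosome 5 from 147561604 to 147726011. Flt4 (VEGFR3), which marks lymphatic endothelium and some fenestrated and growing blood vessels, had 6.16 TPM in replicate 1 and 4.98 TPM in replicate 2, and lies on chromosome 11 from 49609263 to 49652739. Flt1 was thus the lower and Flt4 the higher in replicate 1.

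Flt1 over Kdr had a log2 ratio of -1.51 in replicate 1 and -1.27 in replicate 2, a mean of -1.39 ± 0.17 (SD, n = 2), so that Flt1 was 2.62-fold lower than Kdr. Flt4 over Kdr had -2.52 in replicate 1 and -2.85 in replicate 2, a mean of -2.68 ± 0.23 (SD, n = 2), or 6.43-fold lower. Both ratios kept the sign in the other quantification, at -1.47 and -2.64.

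Of the coding genes, 59.5% lay at or below the angiopoietin Angpt1 and 39.8% at or below Angpt2. Angpt1, which is made by pericytes and other mural and stromal cells and stabilises vessels, had 5.35 TPM in replicate 1 and 5.90 TPM in replicate 2 from 710 and 741 counts. It lies on chromosome 15 from 42424723 to 42676977, and 737 nt of it overlap the antisense gene Gm17473, which stood at 0.22 and 0.08 TPM. Whether counting used the strand is not stated, so reads of this overlap are uncertain.

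Angpt2, which endothelial cells release where vessels are remodelled, was the lowest of the 10 genes. It had 1.04 TPM in replicate 1 and 0.99 TPM in replicate 2 from 121 and 107 counts, with deposited credibility intervals of 0.869 to 1.38 TPM and 0.836 to 1.47 TPM. A threshold of 1 TPM lies within both intervals, so Angpt2 cannot be placed on either side of it at this depth. The gene lies on chromosome 8 from 18690263 to 18741562. Angpt2 over Angpt1 had a mean log2 ratio of -2.47 ± 0.15 (SD, n = 2), which is 5.54-fold lower for the antagonist-type ligand.

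Of the Tie receptors, Tie1 lay below Kdr and Tek lay close to Flt1. Tie1, an orphan-type receptor that pairs with TEK and tunes its signal, stood at 24.65 TPM in replicate 1 and 25.96 TPM in replicate 2, a mean of 25.3 ± 0.926 TPM (SD, n = 2). Tek, the angiopoietin receptor, stood at 14.51 TPM in replicate 1 and 15.85 TPM in replicate 2, a mean of 15.2 ± 0.948 TPM (SD, n = 2). Both lie on chromosome 4, Tie1 from 118471191 to 118490061 and Tek from 94739289 to 94874976.

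Tek was lower than Tie1 in both libraries. Tek over Tie1 had a log2 ratio of -0.76 in replicate 1 and -0.71 in replicate 2, a mean of -0.74 ± 0.04 (SD, n = 2). Against Pecam1, a general endothelial surface gene that stood at 48.24 and 50.85 TPM in replicates 1 and 2, Kdr had a mean log2 ratio of -0.48 ± 0.04 and Tek one of -1.71 ± 0.04 (SD, n = 2 each). These ratios set genes known from endothelial cells side by side and moved little between the libraries. The part of other cell types in them was not tested.

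From high to low the order was Vegfa, Vegfb, Kdr, Tie1, Tek, Flt1, Angpt1, Flt4, Vegfc and Angpt2. Most neighbours in this order did not overlap between the libraries in either quantification. The exceptions were Tek and Flt1, which overlapped in the gene table and not in the other quantification, and Angpt1 and Flt4, which overlapped in both.

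**Figure D2:**
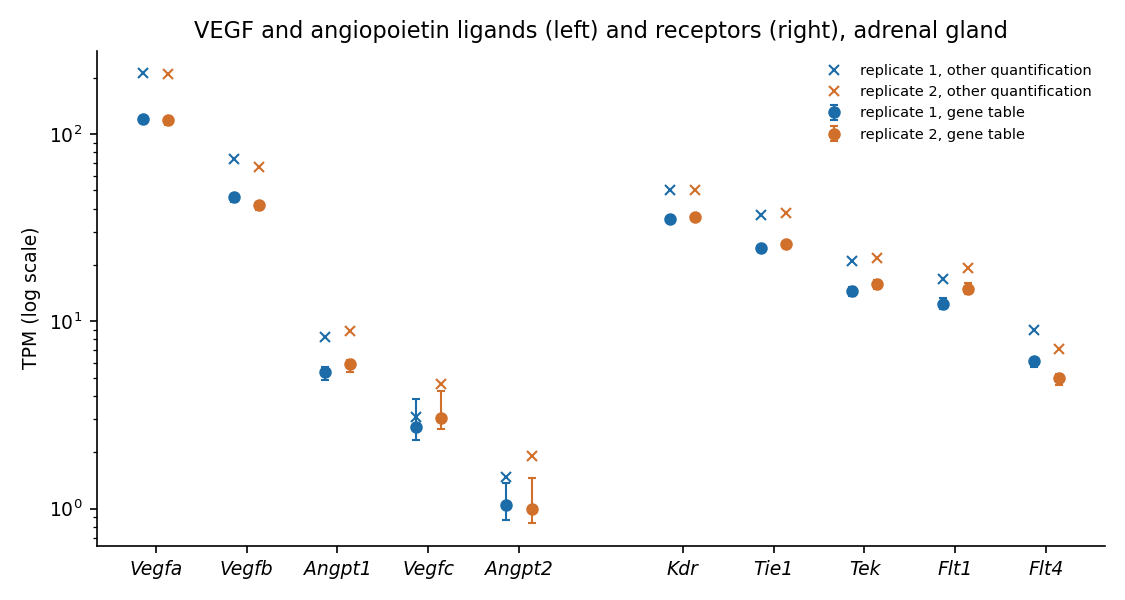
TPM on a log scale for the 5 ligands and 5 receptors, with replicate 1 left of replicate 2; circles are the gene table with its deposited credibility intervals and crosses are the other quantification. Vegfa stands highest at 120.74 and 118.22 TPM in the gene table and Angpt2 lowest at 1.04 and 0.99 TPM, and every cross lies above its circle.

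**Figure D3:**
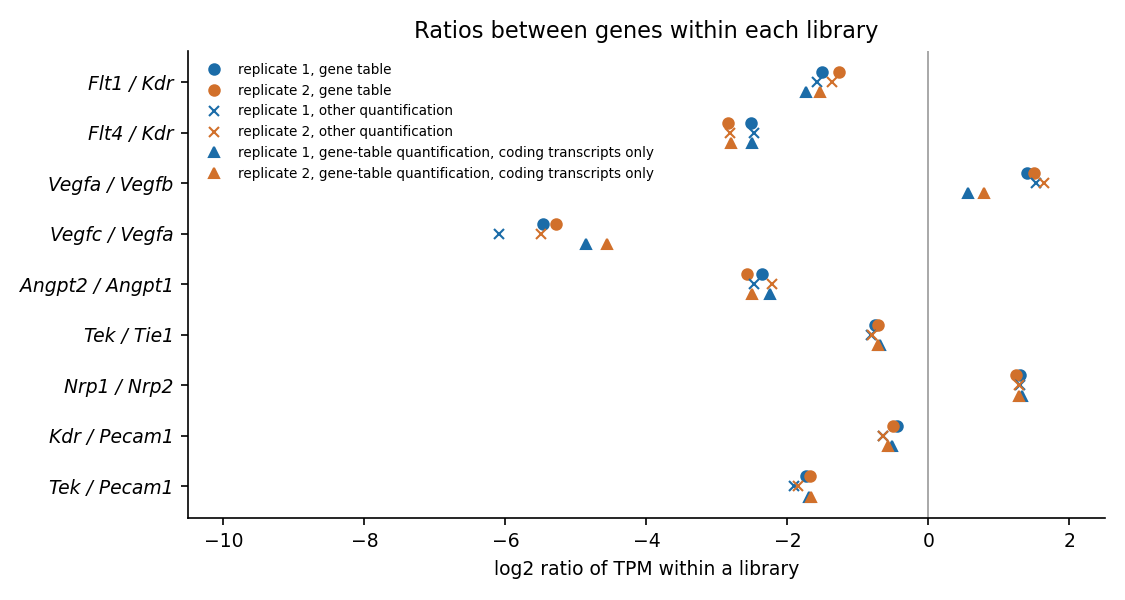
Log2 ratios of TPM between pairs of genes within each library, from the gene table, the other quantification and coding transcripts only. All 9 ratios keep their sign throughout, and Vegfa over Vegfb has a mean of 0.68 over coding transcripts, against 1.44 over all transcripts.

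The 10 genes had 41 annotated transcripts, 23 of them with a coding sequence. The transcript with the largest mean share of its gene was the same in both quantifications for 10 of 10 genes. Shares below are percent of the gene's TPM, and the transcripts of a gene share most of their sequence, so their split rests on the reads that tell them apart.

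Vegfa had the most divided output. Transcripts with no coding sequence, all annotated as retained introns, took 44.8% of its TPM in replicate 1 and 39.4% in replicate 2, and 48.2% and 40.7% in the other quantification. These transcripts are short, and by counts they took 12.5% in replicate 1 and 10.2% in replicate 2. The largest were Vegfa-209, with 20.6% and 18.7% of the TPM in replicates 1 and 2, Vegfa-210, with 10.7% and 6.99%, and Vegfa-206, with 8.55% and 9.55%. Over 9766 detected coding genes with such a transcript, the median TPM share was 15.0% in replicate 1 and 13.6% in replicate 2, and 87.8% of the genes lay at or below Vegfa. By counts the medians were 6.38% and 5.71%, and 68.3% of the genes lay at or below it. In total RNA, unspliced precursor also gives reads in introns, and its part in these shares was not tested.

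Among the coding transcripts of Vegfa, the form with the 132-nt exon alone, Vegfa-202, led. It took 52.4% of coding TPM in replicate 1 and 47.4% in replicate 2, a mean of 49.9 ± 3.59% (SD, n = 2). This exon set is that of the main heparin-binding VEGFA form. The form with neither exon, Vegfa-201, which is the freely diffusible type, took 25.7% of coding TPM in replicate 1 and 28.6% in replicate 2.

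The form with both exons, Vegfa-207, which holds the stretch richest in lysine and arginine and is known to stay close to the cell that makes it, took 21.8% of coding TPM in both libraries. The form with the 72-nt exon alone, Vegfa-203, was listed at 0 in replicate 1 and took 2.25% of coding TPM in replicate 2. In the other quantification, it took 4.86% and 17.0%, so its share is not settled by these data. The order of the other 3 forms was also less firm there, with 38.6% and 37.5% for Vegfa-202, 25.9% and 20.6% for Vegfa-201, and 30.2% and 25.0% for Vegfa-207. Vegfa-202 led in both quantifications, while Vegfa-201 and the form with both exons changed places. Vegfa-202 and Vegfa-207 are annotated with a start upstream of the usual ATG, and Vegfa-201 differs from them at its 5′ start as well as in these exons. The annotated 3′ ends differ too. The last exon runs to 15.377 kb from the gene's start in Vegfa-201 and Vegfa-202. It runs to 13.827 kb in Vegfa-207 and to 13.512 kb in Vegfa-203. The shares thus rest on these ends as well as on the optional exons.

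Vegfb was split nearly evenly between its acceptors. Vegfb-202, which uses the downstream AG and encodes the heparin-binding form, took 54.4% in replicate 1 and 54.7% in replicate 2. Vegfb-201, which holds the 101-nt extension and encodes the more soluble form, took 43.5% and 44.2%. The split was close in the other quantification, with 54.3% in both libraries for Vegfb-202.

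In Flt1, the full-length receptor Flt1-202 took 57.0% in replicate 1 and 54.7% in replicate 2, and the soluble form Flt1-203 took 21.2% and 21.3%. Of coding TPM alone, soluble Flt1 took 27.1% in replicate 1 and 28.1% in replicate 2, a mean of 27.6 ± 0.708% (SD, n = 2). The other quantification gave 27.5% and 27.7%. The soluble share thus differed by about 1 percentage point between libraries while Flt1 itself differed. The end of Flt1-203 that sets it apart lies in an intron of Flt1-202. Unspliced precursor in total RNA also gives reads there, and its part in the soluble share was not tested. A processed transcript with no coding sequence, Flt1-201, took 18.9% and 19.5% of all Flt1 TPM, and 9.57% and 8.25% in the other quantification.

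In Tek, Tek-203 took 66.0% in replicate 1 and 65.5% in replicate 2. Tek-202, which skips the 153-nt exon, took 17.3% and 18.4%, but 8.55% and 6.52% in the other quantification, so the share without this exon differed more between quantifications than between libraries. Tek-201, which is 3 nt shorter in its coding sequence than Tek-203, took 15.4% and 13.4%. Tie1-201, the full-length form, took 86.7% of Tie1 in replicate 1 and 91.5% in replicate 2, and the truncated Tie1-203 took 7.42% and 5.86%. Unspliced precursor may also give reads in the intron that Tie1-203 runs into, and its part was not tested.

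In the gene-table quantification, the other genes each had 1 coding transcript with most of the TPM. Kdr-201, with 1345 codons, took 91.8% of Kdr in replicate 1 and 91.3% in replicate 2. Flt4-201, with 1363 codons, took 92.5% and 94.4%, and Angpt1-201, with 498 codons, took 92.1% and 94.8%. The noncoding Angpt1-202 took 7.88% and 5.33%, and 11.7% and 6.86% in the other quantification. For the low genes the shares rest on few counts. Angpt2-201 took 100% in both libraries, but 68.3% in replicate 2 of the other quantification, where the noncoding Angpt2-202 took 31.7%. Vegfc-201 took 84.2% in replicate 1 and 87.5% in replicate 2, and the remainder went to the noncoding Vegfc-202 in replicate 1, with 5.82 counts, and to the coding Vegfc-203 in replicate 2, with 5.41 counts. In the other quantification Vegfc-201 took 100% in replicate 1 and 73.2% in replicate 2, where Vegfc-203 took 26.8%.

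**Figure D4:**
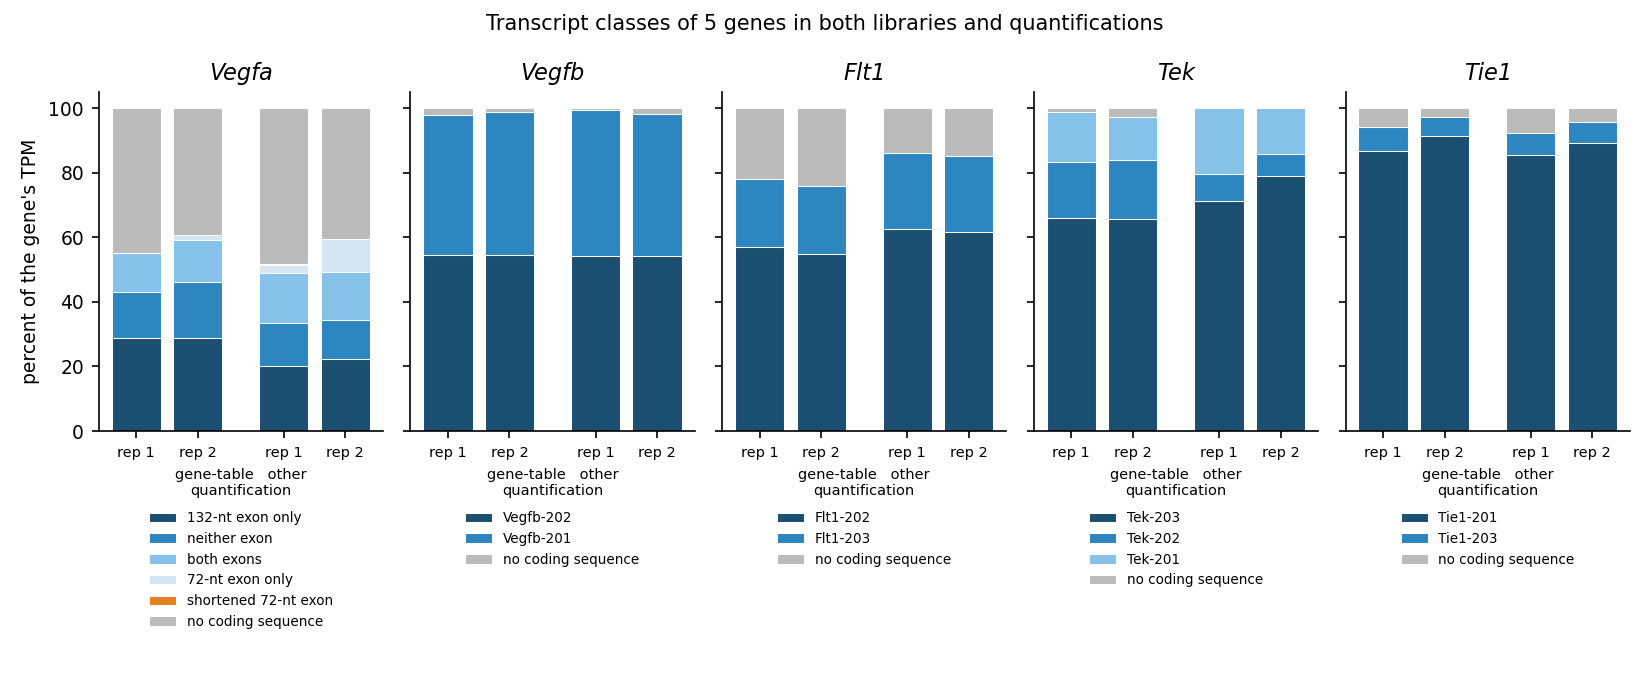
Percent of the TPM of Vegfa, Vegfb, Flt1, Tek and Tie1 in each transcript class, with replicate 1 left of replicate 2 and the gene-table quantification left of the other one; grey is the sum of transcripts with no coding sequence. Grey takes 44.8% and 39.4% of Vegfa in the gene-table quantification, while Vegfb and Flt1 show nearly the same split of coding transcripts in all 4 bars.

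Next, the other genes of these systems were read from a list of 9. The co-receptor Nrp1, which holds VEGFA to KDR, stood at 47.34 TPM in replicate 1 and 44.65 TPM in replicate 2, above each of the 5 receptors. Nrp2, which pairs with FLT4 on lymphatic and venous cells, stood at 19.31 and 18.91 TPM. Nrp1 over Nrp2 had a mean log2 ratio of 1.27 ± 0.04 (SD, n = 2). Ptprb, the phosphatase that restrains TEK, stood at 18.08 and 20.76 TPM. Svep1, a matrix protein with a role in lymphatic vessel growth and a binding partner of TIE1, stood at 9.34 and 10.65 TPM.

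Vegfd, a ligand of FLT4, had 7.40 TPM in replicate 1 and 7.51 TPM in replicate 2. Both values exceeded those of Vegfc, the other FLT4 ligand. Ccbe1 and Adamts3, which are needed to cut VEGFC into its active form, had 4.20 and 3.69 TPM and 1.23 and 1.37 TPM in replicates 1 and 2. The FLT1 ligand Pgf had 0.60 and 0.43 TPM. Angpt4, the third ligand of TEK, had 2 counts in replicate 1, which is below the limit of 3 counts used for a count of 0, and 15 counts in replicate 2. In all, 7 of the 9 reached 1 TPM in both libraries.

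Of 8 genes that carry the signal inside the cell, 6 reached 1 TPM in both libraries. Most of them are used by many cell types, so their levels cannot be assigned to endothelial cells. Akt1, a kinase of survival signalling, stood at 83.13 and 74.52 TPM in replicates 1 and 2. Plcg1, the phospholipase recruited by KDR, stood at 35.87 and 36.10 TPM, and Pik3r1, a PI3-kinase regulatory subunit, at 27.31 and 28.56 TPM. Shb, an adaptor that binds KDR, had 13.34 and 16.38 TPM, and Foxo1, the transcription factor that AKT inactivates downstream of TEK, had 8.55 and 10.28 TPM. Nos3, endothelial nitric oxide synthase, had 5.48 and 5.26 TPM. The adaptors Dok2, which binds TEK, and Sh2d2a, which binds KDR, were lowest, at 1.15 and 0.82 TPM and at 0.20 and 0.17 TPM. The deposited credibility intervals of Dok2 were 1.37 to 3.47 TPM in replicate 1 and 1.05 to 2.70 TPM in replicate 2. The other quantification gave Dok2 3.22 and 0.948 TPM, so its place beside 1 TPM is uncertain.

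The vessel cells that use these genes were read from marker lists. All 10 blood endothelial markers reached 1 TPM in both libraries and summed to 367 TPM in replicate 1 and 377 TPM in replicate 2, led by Egfl7 at 100.20 and 91.45 TPM and by Cdh5 at 62.49 and 67.92 TPM. The 8 pericyte and smooth muscle markers summed to 127 and 139 TPM, led by Rgs5 at 45.14 and 53.34 TPM and by Acta2 at 23.00 and 24.09 TPM. Of the 5 lymphatic markers, 4 reached 1 TPM in both libraries, and Mmrn1 missed it with 0.94 TPM in replicate 2. The 5 lymphatic markers summed to 35.0 TPM in replicate 1 and 24.3 TPM in replicate 2. They were led by Ccl21a at 14.24 and 9.71 TPM and by Prox1 at 10.47 and 7.37 TPM. The mean levels of single blood endothelial markers ran from 10.3 to 95.8 TPM and those of lymphatic markers from 1.27 to 12.0 TPM.

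The libraries were then set against each other, as the only comparison the design allows. The ratio is replicate 1 over replicate 2 on counts scaled by TMM, a method that centres the bulk of genes, over 18883 genes whose counts summed to 20 or more. The 95% intervals cover counting error only, and the ratio compares these libraries, with 1 sample a side and no replicate check. None of the 10 genes differed by 2-fold or more, against 7.92% of all genes, and none did in the other quantification, against 7.54%. Their log2 ratios lay between -0.29 and 0.24 with a median of -0.12, beside a median of 0.003 over all genes. Of the 10 genes, 3 were above 0 and 7 below, against 9561 above and 9322 below among the 18883 genes.

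Counting intervals excluded a ratio of 1 for 7 of the 10 genes, against 34.3% of all genes, which include many of lower counts with wider intervals. Of these 7, 1 was higher and 6 were lower in replicate 1. With total count scaling the number was 6, of which 5 were shared: the intervals of Vegfa and Kdr then included a ratio of 1 and that of Vegfb did not. Flt1 had the lowest value, a log2 ratio of -0.29 (95% interval -0.38 to -0.21), and Angpt1 had -0.23 (-0.38 to -0.08). Tek, Tie1, Vegfa and Kdr had -0.17, -0.15, -0.08 and -0.08. Flt4 alone was higher in replicate 1 beyond counting error, with a log2 ratio of 0.24 (0.11 to 0.36). For Vegfb, Angpt2 and Vegfc the interval included a ratio of 1 under TMM.

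The marker lists also differed between the libraries, in both directions. All 5 lymphatic markers were higher in replicate 1, with log2 ratios from 0.28 to 0.76 and a median of 0.47. For 4 of these 5 the interval excluded a ratio of 1. Of the 10 blood endothelial markers, 9 were lower in replicate 1, or 7 with total count scaling, with a range of -0.20 to 0.08 and a median of -0.13, and of the 8 pericyte and smooth muscle markers 7 were lower, with a median of -0.17. The 7 fat cell markers were all lower in replicate 1, with a median of -0.22 and every interval below 0, and so were the 6 cortex markers, with a median of -0.11 and 5 intervals below 0; with total count scaling 5 of the 7 and 5 of the 6 were lower. The 4 chromaffin markers had a median of 0.08. Of the 6 skeletal muscle markers, 5 were past 2-fold higher in replicate 1 and 1 past 2-fold lower. The 8 hepatocyte markers were all past 2-fold higher in replicate 1, with a median log2 ratio of 2.33, and the 8 kidney markers all past 2-fold lower, with a median of -8.52. The 7 red cell markers, led by Hba-a1 and Hbb-bs, summed to 4613 TPM in replicate 1 and 2724 TPM in replicate 2, the 4 platelet markers, led by Pf4 and Itga2b, to 12.3 and 9.35 TPM, and the 5 macrophage markers, led by Csf1r and C1qb, to 36.6 and 30.3 TPM. The part of these cells, liver included, in the ratios of the lymphatic markers, Flt1, Flt4 and the other genes was not tested.

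Among the other genes of the systems, 8 had enough counts to compare and none differed by 2-fold or more. Ptprb and Svep1 were lower in replicate 1, with log2 ratios of -0.26 and -0.29 and intervals that excluded a ratio of 1. Of the 8 signal genes, Shb, Foxo1, Pik3r1 and Plcg1 were lower in replicate 1, with -0.39, -0.32, -0.17 and -0.15, and the other 4 had intervals that included a ratio of 1.

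**Figure D5:**
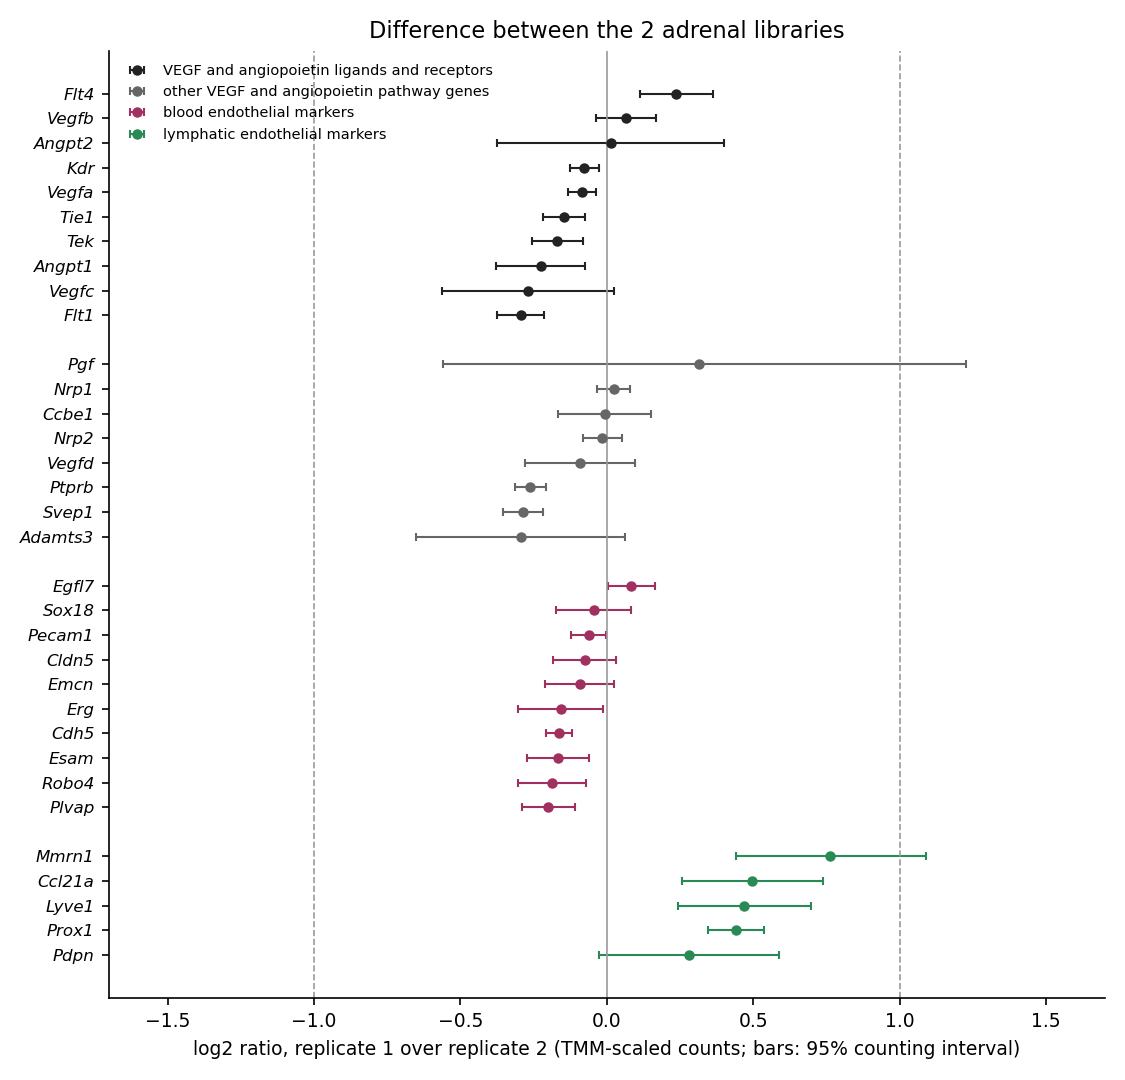
Log2 ratio of replicate 1 over replicate 2 on TMM-scaled counts with 95% counting intervals, for the ligands and receptors, the other genes of the systems, and blood and lymphatic endothelial markers; dashed lines mark a 2-fold difference. Flt4 at 0.24 is the highest of the 10 genes and Flt1 at -0.29 is the lowest. All 5 lymphatic markers were higher in replicate 1. The 8 hepatocyte and 7 red cell markers, not drawn, were also higher in replicate 1.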

How the data were processed

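For each library, expected counts and TPM per gene and per transcript were deposited by the authors from a first quantification. Credibility intervals of TPM (a signal range) and each transcript's percent of its gene were deposited with them. A transcript table of another quantification was deposited by the authors with estimated counts and TPM, and was summed per gene. Per the file headers the columns are those of RSEM and kallisto, and the notes deposited with the files give the build as mm10 and the annotation as M21. Not given in the sources used here are the aligner, the quantifier versions, the strand used in counting and any use of CAST/EiJ variants. The labels' protocols name a directional kit, and their spike-in entry refers to ribosome-reduced libraries.

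Expected counts were rounded and scaled with TMM in edgeR 4.0.16 (R 4.3.3). Features with a bare number as ID, 1.96e-05% and 1.8e-05% of counts in replicates 1 and 2, and spike-ins, 0.979% and 0.929%, stayed out. Between-library log2 ratios used a prior count of 0.5 and genes whose counts summed to 20 or more, with exact 95% Clopper-Pearson intervals. Intervals and the limit of 3 counts for a count of 0 cover counting error only. Libraries differed by a chi-square of 57.8 per gene over 18883 genes, so they are not 1 library deposited again. A single group leaves edgeR's quasi-likelihood test without a contrast. The smallest two-sided p that an exact test by sign flips could give is 0.5, so p-values are left out. The scaling step was tested on simulated data. Alternatives were DESeq2 1.42.0 size factors, total count scaling, other priors and filters, posterior mean TPM, the other quantification and leaving out each library. Python 3.11.15, numpy 2.4.6, pandas 2.3.3, scipy 1.17.1 and matplotlib 3.10.9 were used.

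The genes and lists were chosen with earlier results of these data known. Named are the 10 genes, all genes of the list of 9 other genes and of the list of 8 signal genes, the 2 genes of highest mean TPM in each of 12 marker lists, the genes of 9 ratios, and transcripts with at least 10% of their gene in any library or quantification, beside the coding classes of Vegfa and Flt1. Tie1-203 and Gm17473 were named after their values were seen.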

Additional observations from a re-analysis of the deposited data

How the results depend on the processing

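No paired analysis was possible because there is 1 group and no contrast. Of the 10 genes, 9 reached 1 TPM in both libraries, against 10 at 0.5 TPM, 7 at 5 TPM and 10 in the other quantification. None passed 2-fold under any scaling, prior or filter tried. Without a filter on counts, 25.6% of 28538 genes passed 2-fold, against 7.92%. Total count scaling shifted the median of all genes to 0.07 and the 10 genes to between -0.22 and 0.31 with no change of sign, and Vegfa, Kdr and Tie1, at -0.01, -0.007 and -0.08, left their counting intervals. Under it 6 genes had an interval that excluded a ratio of 1, with Vegfa and Kdr lost and Vegfb gained, against 7 under TMM and every other setting. No pair ratio changed sign. In the other quantification, Vegfa over Vegfb was 1.58, Vegfc over Vegfa -5.79, Tek over Tie1 -0.81, Kdr over Pecam1 -0.65 and Tek over Pecam1 -1.88. With posterior mean TPM, Vegfc over Vegfa was -5.19 and Angpt2 over Angpt1 -2.30. With coding transcripts only, chosen after the data were seen, Flt1 over Kdr was -1.64, Vegfa over Vegfb 0.68, Vegfc over Vegfa -4.71 and Kdr over Pecam1 -0.55. The cause of these shifts was not tested, beyond the retained-intron share of Vegfa that the last setting removes. Scaled to nuclear coding genes alone, Vegfa was 358 TPM in the gene table and 382 TPM in the other quantification, and Vegfb 132 and 127 TPM. Depth limits Angpt2 and Vegfc most.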
